A study of Mus musculus with 55 samples.

Results

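The Obox and Oosp genes are gene families known from the mouse oocyte. The 9 genes described here, Obox1, Obox2, Obox3, Obox5, Obox6, Obox7, Oosp1, Oosp2 and Oosp3, were chosen by name from the 51734 genes of the count tables. The 6 Obox genes lie on chromosome 7 and the 3 Oosp genes on chromosome 19. Single oocytes were sequenced, 1 library per oocyte, giving 52 libraries. They comprised 18 wild-type fully grown oocytes (FGOs, the large oocytes of the ovary that still hold an intact nucleus), 8 FGOs homozygous for Dnmt3L D124A with wild-type Dnmt3a, 8 FGOs homozygous for the Dnmt3a ADA allele with wild-type Dnmt3L, 8 FGOs homozygous for both, and 10 wild-type MII oocytes, which have matured and are ready for fertilization. The alleles replace aspartic acid by alanine in the ADD domain, the part of DNMT3A and of its partner DNMT3L that reads unmethylated lysine 4 of histone H3, and the single mutants are called Dnmt3L ADD/ADD or Dnmt3a ADD/ADD below and the FGOs with both alleles double mutant. The alleles were introduced by editing zygotes, so no Cre or transgene restricts them to oocytes, and the mice were basically C57BL/6J. FGOs came from mice aged 10 to 12 weeks by puncture of the ovary and their cumulus cells were washed off. For MII oocytes the paper describes injecting inhibin antiserum and then human chorionic gonadotropin into females of a partly older age range. Those oocytes were collected from the oviduct. The description is given for fertilization, and whether it holds for the sequenced MII oocytes was not stated. Neither the donor of an oocyte nor the number of donors per group was given in the sources used here, so p-values measure the spread between oocytes, and oocytes of 1 female may be among them.

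Obox genes encode homeobox transcription factors of the paired-like class that are found in rodents and arose by repeated duplication of an ancestor related to Crx. Transcripts of several members are stored in the growing oocyte, and the family is known for a part in the first activation of the embryonic genome. Oosp genes (oocyte-secreted proteins) encode small secreted proteins related to placenta-specific protein 1 (Plac1) and are known chiefly from oocytes. DNMT3A, helped by DNMT3L, sets down the DNA methylation of the growing oocyte.

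The Obox genes are so alike that their sequences bear on how reads were assigned. The stretches printed here are coding bases of the homeobox, the part that encodes the DNA-binding domain, read from GENCODE transcripts on GRCm38 (the mm10 build) and written 5′ to 3′ on the gene's own strand. The first set ends at the last intron within the coding sequence, and capitals mark bases that differ from Obox1.
Obox1 (chr7:15555605-15555704, plus strand): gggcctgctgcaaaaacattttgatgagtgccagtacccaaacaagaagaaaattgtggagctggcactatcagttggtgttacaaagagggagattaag
Obox2 (chr7:15397288-15397386, plus strand): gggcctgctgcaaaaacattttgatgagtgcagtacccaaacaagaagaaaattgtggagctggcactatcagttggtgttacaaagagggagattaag
Obox3 (chr7:15626796-15626895, minus strand): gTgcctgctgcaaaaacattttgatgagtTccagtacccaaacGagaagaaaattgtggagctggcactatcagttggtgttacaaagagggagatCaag
Obox5 (chr7:15757979-15758078, plus strand): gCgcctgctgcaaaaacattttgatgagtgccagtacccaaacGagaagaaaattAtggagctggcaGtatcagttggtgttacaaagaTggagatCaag
Obox7 (chr7:14664480-14664579, plus strand): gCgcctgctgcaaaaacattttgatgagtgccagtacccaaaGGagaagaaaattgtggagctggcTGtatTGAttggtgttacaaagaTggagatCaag
Obox6 (chr7:15834380-15834479, minus strand): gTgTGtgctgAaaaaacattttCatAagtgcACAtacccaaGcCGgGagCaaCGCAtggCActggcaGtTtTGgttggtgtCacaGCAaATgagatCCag
Of the 100 bases, 4 differ from Obox1 in Obox3, 6 in Obox5, 10 in Obox7 and 32 in Obox6. Obox2 has no differing base but is 1 base shorter, with the gap placed after base 30 of the printed stretch. The annotated coding sequence of Obox2 also ends sooner, at 453 bases against 612 in Obox1.

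The second set opens the next coding exon and, in the genes other than Obox2, encodes the recognition helix, which lies in the major groove of DNA. In Obox2 the exon before it holds 199 coding bases, against 200 in Obox1. The annotated frame of Obox2 is thus shifted here, and its coding sequence ends 37 bases into this exon. The set is shown because these bases differ little between strongly and barely expressed genes.
Obox1 (chr7:15556151-15556186, plus strand): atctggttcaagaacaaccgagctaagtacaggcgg
Obox2 (chr7:15397834-15397869, plus strand): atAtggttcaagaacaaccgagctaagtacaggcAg
Obox3 (chr7:15626290-15626325, minus strand): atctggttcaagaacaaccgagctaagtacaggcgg
Obox5 (chr7:15758539-15758574, plus strand): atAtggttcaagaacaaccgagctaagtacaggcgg
Obox7 (chr7:14665268-14665303, plus strand): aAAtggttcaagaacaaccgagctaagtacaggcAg
Obox6 (chr7:15833915-15833950, minus strand): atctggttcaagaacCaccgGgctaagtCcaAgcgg
Obox3 matches Obox1 at all 36 bases of this stretch, and Obox6 differs at 4. Over the coding bases aligned in both genes, Obox1 and Obox2 share 98.9%, Obox5 and Obox7 96.3%, and Obox1 and Obox6 85.8%.

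The Oosp genes are much less alike. Coding identity is 60.5% between Oosp1 and Oosp3, 65.1% between Oosp1 and Oosp2, and 61.0% between Oosp2 and Oosp3. Their most similar stretch of 45 coding bases holds 23 bases that are the same in all 3 genes, in capitals here.
Oosp1 (chr19:11688733-11688777, minus strand): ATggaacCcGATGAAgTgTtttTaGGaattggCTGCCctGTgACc
Oosp2 (chr19:11651541-11651585, minus strand): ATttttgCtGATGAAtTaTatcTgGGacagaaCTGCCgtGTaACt
Oosp3 (chr19:11699423-11699467, plus strand): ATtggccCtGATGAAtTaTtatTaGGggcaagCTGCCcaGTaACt
Reads of these genes can hardly be confused with each other: all windows of 100 bases in the transcripts of Oosp1, Oosp2 and Oosp3 occur in no other annotated gene. For the Obox genes that share is 57.7% in Obox1, 52.8% in Obox2, 91.1% in Obox3, 98.2% in Obox5, 97.7% in Obox7 and 100% in Obox6. With windows of 53 bases the shares fall to 44.2% in Obox1, 37.1% in Obox2, 81% in Obox3, 83.8% in Obox5, 81.5% in Obox7 and 95.4% in Obox6. Of the Oosp genes only Oosp3 falls, to 98.9%. The windows that Obox1 and Obox2 do not have to themselves lie mostly in each other, and 59 bases of their exons overlap on the same strand. How reads with several matching places were counted was not given. The division of reads between Obox1 and Obox2 is therefore uncertain, and their levels are best read together. If such reads were left out, both genes would be counted too low. The smaller shared parts of Obox3, Obox5 and Obox7 are under the same limit.

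By position on mm10, the Obox genes form a cluster on chromosome 7. Obox7 spans 14659496 to 14665996, Obox2 spans 15388721 to 15398545, Obox1 spans 15388948 to 15556866, Obox3 spans 15479825 to 15639902, Obox5 spans 15750131 to 15759800 and Obox6 spans 15833241 to 15839678. The annotated span of Obox1 starts inside Obox2. The Oosp genes are neighbours on chromosome 19, where Oosp2 spans 11647279 to 11660559, Oosp1 spans 11667460 to 11691150 and Oosp3 spans 11697055 to 11711874. The exons of Oosp3 share 57 bases with Gm19224 on the opposite strand. Since the counting was not stated to use strand, reads there cannot be told apart.

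The libraries held 7832458 to 23739871 counted reads, with a median of 14410784. One property of the libraries bears on the Oosp results. In the study's sequencing summary, under 80% of reads were mapped for 8 of the 18 wild-type FGOs, 3 of the 8 Dnmt3a ADD/ADD FGOs, all 8 double mutant FGOs and 3 of the 10 MII oocytes, and at least 80% for all the others, including the 8 Dnmt3L ADD/ADD FGOs. Of the wild-type FGOs, replicates 1 to 8 are those with under 80% and replicates 9 to 18 those with at least 80%. The class is used below to recompute comparisons and in an added comparison within the wild-type FGOs. The deposited counts keep the oocyte identity clear: the summed level of 12 oocyte markers was 8080 to 14290 CPM (counts of a gene scaled to a common library size) in each library. Dnmt3a averaged 299 ± 30.9 CPM in wild-type FGOs (SD, n = 18), 322 ± 16.4 in FGOs with its own ADD mutation, 325 ± 19.7 in Dnmt3L ADD/ADD and 308 ± 24.1 in double mutant FGOs (n = 8 each). The mutations replace amino acids and delete no exon, so transcript counts of the mutated genes do not test the genotype labels.

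Within the Obox family, 4 genes were abundant and 2 were near the detection floor in every group. CPM are given after TMM scaling, which equalises the bulk of genes between libraries. In the 18 wild-type FGOs, Obox2 ranged from 461 to 877 CPM with a median of 669. Obox5 ranged from 443 to 736 CPM with a median of 548, Obox1 from 311 to 565 CPM with a median of 436, and Obox7 from 55.6 to 115 CPM with a median of 95.6. These 4 genes were read in all 52 libraries, with at least 627 counts each.

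Obox3 and Obox6 gave almost no reads in the same oocytes. Obox3 had 3 to 26 counts in wild-type FGOs and a mean of 0.705 ± 0.428 CPM (SD, n = 18). Obox6 was at 0 counts in 21 of the 52 libraries and reached 10 counts at most. A count of 0 allows up to 3 counts, which is 0.174 to 0.343 CPM of the totals of those libraries, counting error only. Obox6 did not pass the filter on low counts and was not tested, so 8 of the 9 genes entered the tests.

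**Figure D1:**
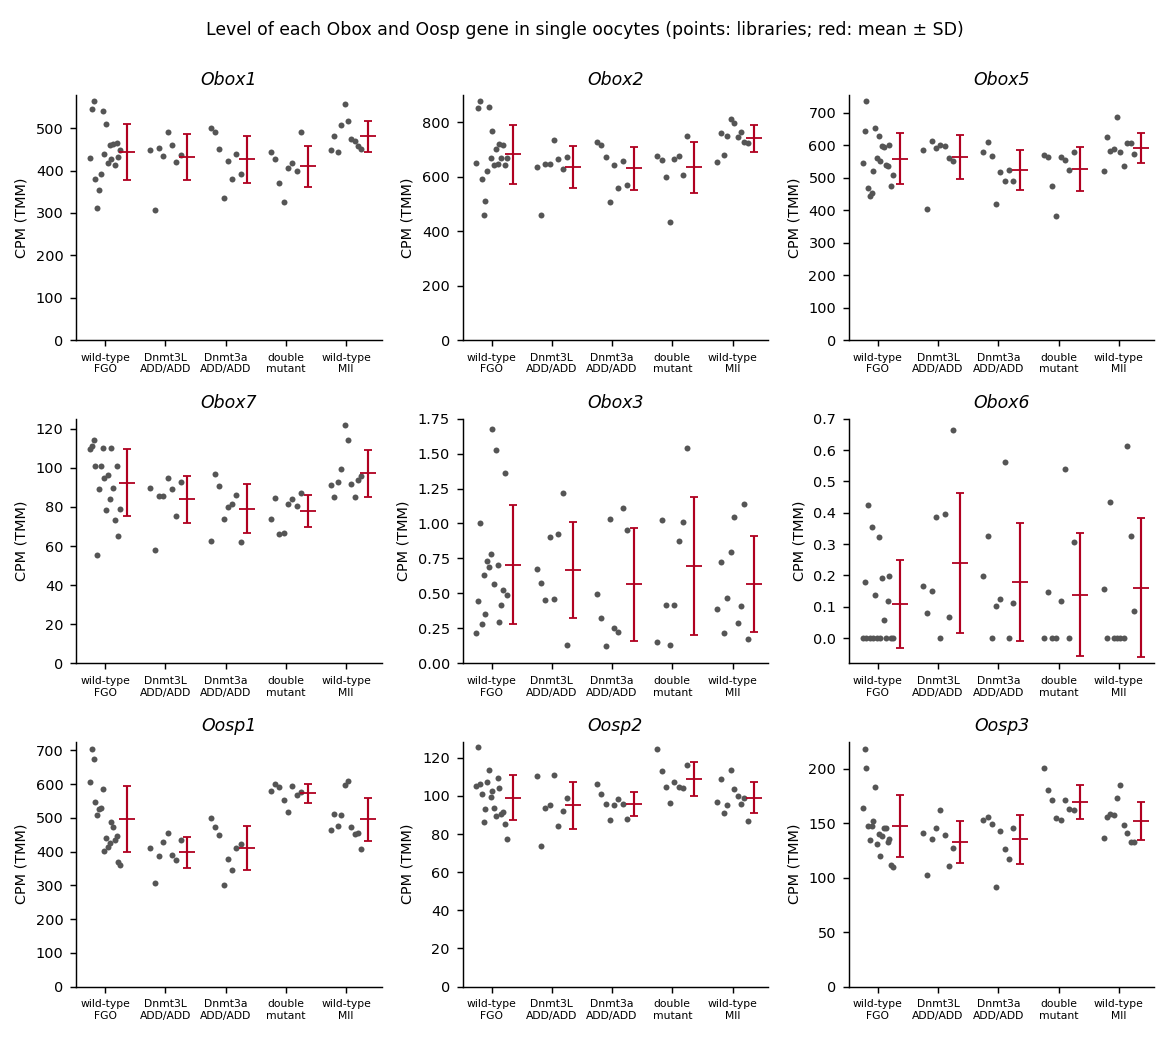
Each panel plots 1 gene, with CPM after TMM scaling on a linear vertical axis (ranges differ between panels) and the 5 groups on the horizontal axis; each point is 1 oocyte library, and the red mark is the mean ± SD. Obox1, Obox2, Obox5 and Obox7 overlap between all groups, Obox3 and Obox6 stay under 2 CPM, and the 8 double mutant FGOs of Oosp1 (516 to 599 CPM) lie above all single mutant FGOs.

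Levels between genes were compared per kilobase of summed exon length. In wild-type FGOs, Oosp1 stood highest at 510 ± 102 CPM per kilobase (SD, n = 18), followed by Obox2 at 414 ± 66.5. Obox5 followed at 262 ± 36.4, Obox1 at 234 ± 34.8, Oosp3 at 179 ± 34.7, Oosp2 at 146 ± 17.3 and Obox7 at 57.7 ± 10.7 CPM per kilobase. Obox3 stood at 0.221 ± 0.134 and Obox6 at 0.0820 ± 0.105 CPM per kilobase, far under the other genes. Most neighbours in this order kept it in each library: Obox2 exceeded Obox5 in 18 of 18 wild-type FGOs, and Oosp2 exceeded Obox7 in 18 of 18. Oosp1 exceeded Obox2 in 15 of 18, and the mean log2 ratio of these neighbours (0.29) was smaller than its SD (0.31). Obox5 exceeded Obox1 in 17 of 18 libraries, by a mean log2 ratio of 0.17 with an SD of 0.10. The order of Obox1 and Obox2 depends on how their shared reads were divided. Their places against Obox5, Oosp1 and the other genes depend on whether such reads were counted at all.

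The annotated relatives added little. Besides the 6 Obox genes, the tables list 49 other Obox loci, 48 of them named as pseudogenes, and 24 of the 49 had no count in any oocyte. Their summed counts were 0.175% of those of the 6 Obox genes. Obox3-ps1, a pseudogene, was the single one that passed the filter, with a mean of 0.640 CPM, which is close to the level of Obox3 itself. No other Oosp locus is listed.

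The abundant Obox genes kept similar proportions. Obox2 gave 38.3% ± 1.17 of all Obox counts in wild-type FGOs (SD, n = 18), Obox5 31.5% ± 1.39, Obox1 25.0% ± 0.729 and Obox7 5.22% ± 0.832. In double mutant FGOs the same shares were 38.4% ± 1.18, 31.9% ± 0.806, 24.9% ± 1.05 and 4.76% ± 0.402 (n = 8). In MII oocytes they were 38.8% ± 0.954, 30.9% ± 1.26, 25.2% ± 0.748 and 5.08% ± 0.435 (n = 10). In both groups each mean share lay within 1 SD of that in wild-type FGOs. In Dnmt3L ADD/ADD FGOs the share of Obox2 was lower, at 37.1% ± 0.858, which is more than 1 SD from wild type, and that of Obox5 higher, at 32.9% ± 0.972 (n = 8). These shares were not tested, and their sizes also depend on how reads shared between Obox genes were counted. The spread between oocytes of the summed Obox level (14.5% coefficient of variation in wild-type FGOs) was shared by the 3 most abundant genes. Across the 42 FGOs, Pearson's r was 0.97 between Obox1 and Obox2 and 0.91 between Obox1 and Obox5, both on log2 CPM with 0.5 added. It was 0.58 between Obox1 and Obox7. These are descriptions: the points share library depth and preparation, and Obox1 and Obox2 share reads.

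**Figure D2:**
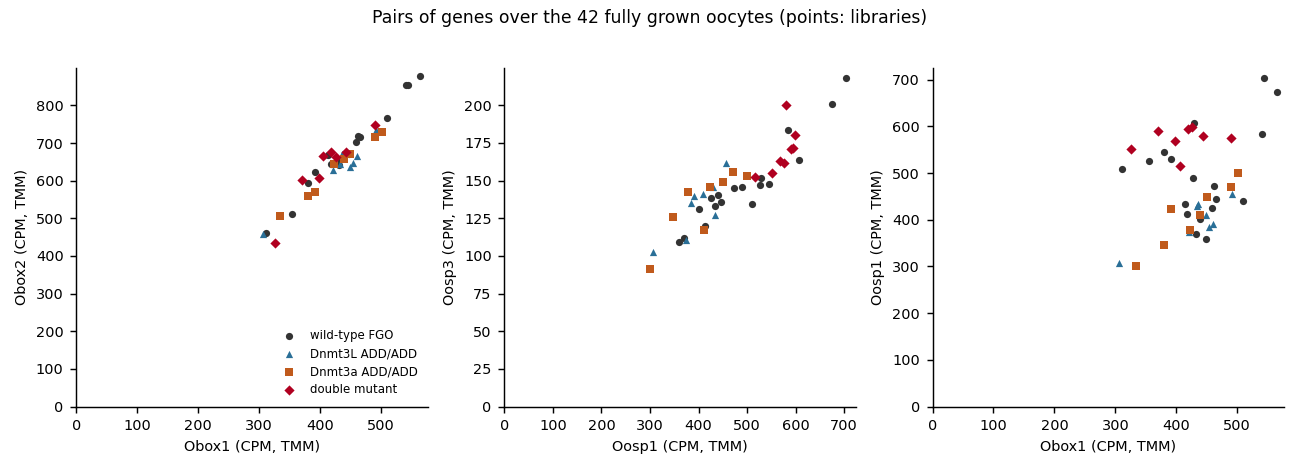
The 3 panels plot CPM of 2 genes against each other over the 42 FGOs, both axes linear from 0, with 1 point per library and a symbol per genotype. Obox1 and Obox2 fall along 1 line in all genotypes, Oosp1 and Oosp3 rise together, and in the plot of Obox1 against Oosp1 the double mutant FGOs lie high on the Oosp1 axis while spanning 326 to 490 CPM of Obox1.

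No Obox gene passed the test in any mutant. The call used the rule of the study, an adjusted p under 0.05 with a change over 2-fold, from edgeR's quasi-likelihood test with Benjamini-Hochberg adjustment over 15726 genes in 42 FGOs. In Dnmt3L ADD/ADD against wild-type FGOs it called 0 of the 5 tested Obox genes and 0 of the 3 Oosp genes, beside 0.655% of all genes, and by adjusted p alone 0 of 5 Obox genes, beside 6.13%. In Dnmt3a ADD/ADD it called 0 of 5 beside 2.05% of all genes (15.7% by adjusted p alone, again with 0 of 5), and in double mutant FGOs 0 of 5 beside 1.65% (12.2% by adjusted p alone, with 0 of 5). At an unadjusted p under 0.05 the counts were 0, 1 and 1 of 5, the 1 being Obox7. Over all 15726 genes the same threshold passed 3537, 4833 and 4563 genes in this order.

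Obox2 showed how narrow these differences were. Its 8 Dnmt3L ADD/ADD libraries ranged from 459 to 734 CPM with a median of 647, the 8 Dnmt3a ADD/ADD libraries from 507 to 728 CPM with a median of 651, and the 8 double mutant libraries from 434 to 749 CPM with a median of 665. Apart from 1 Dnmt3L ADD/ADD and 1 double mutant library that were lower, all of them lay inside the range of wild-type FGOs. The log2 fold change of Obox2 against wild type was -0.10 (95% interval -0.28 to 0.08) for the Dnmt3L mutation, -0.11 (-0.29 to 0.07) for the Dnmt3a mutation and -0.11 (-0.29 to 0.07) for both. For Obox1 it was -0.04 (-0.21 to 0.13), -0.06 (-0.23 to 0.11) and -0.12 (-0.29 to 0.05). For Obox5 it was 0.01 (-0.15 to 0.17), -0.09 (-0.25 to 0.07) and -0.09 (-0.25 to 0.07). The intervals of these 3 genes exclude a change of 2-fold in either direction in each mutant.

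Obox7, the least abundant of the 4, came closest to a call. Its wild-type FGOs held 55.6 to 115 CPM, the Dnmt3a ADD/ADD FGOs 62.0 to 96.7 CPM with a median of 80.8, and the double mutant FGOs 66.2 to 86.9 CPM with a median of 81.1. Most mutant libraries therefore lay in the lower part of the wild-type range. The log2 fold change was -0.14 ± 0.10 (SE) in Dnmt3L ADD/ADD (edgeR adjusted p = 0.405), -0.22 ± 0.10 in Dnmt3a ADD/ADD (adjusted p = 0.12) and -0.25 ± 0.10 in the double mutant (adjusted p = 0.0889). The double mutant difference passed the threshold in 1 of 26 fits that each left out 1 library, with an adjusted p of 0.0259 without wild-type replicate 5, the lowest wild-type library of this gene at 55.6 CPM. Against wild-type FGOs with under 80% of reads mapped, the Dnmt3a ADD/ADD difference was -0.33 with an adjusted p of 0.0306, and against those with at least 80% it was -0.14 (adjusted p = 0.367). Using mutant and wild-type libraries of 1 class, it was -0.42 under 80% (adjusted p = 0.236) and -0.08 at 80% or more (adjusted p = 0.669).

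At the level of Obox3, only large changes could be seen. Its log2 fold changes were -0.09 (95% interval -0.89 to 0.71), -0.33 (-1.14 to 0.48) and -0.04 (-0.82 to 0.75) in the same order of mutants. Changes within these intervals were not detectable at this depth. Between mutants no Obox call was made either: 0 of 5 Obox genes were called between double mutant and Dnmt3a ADD/ADD FGOs (5.86% of all genes by the rule of the study, 30.9% by adjusted p), between double mutant and Dnmt3L ADD/ADD FGOs (4.03% and 24.2%) and between the single mutants (0% and 0.0127%). These comparisons share samples with those against wild type.

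**Figure D3:**
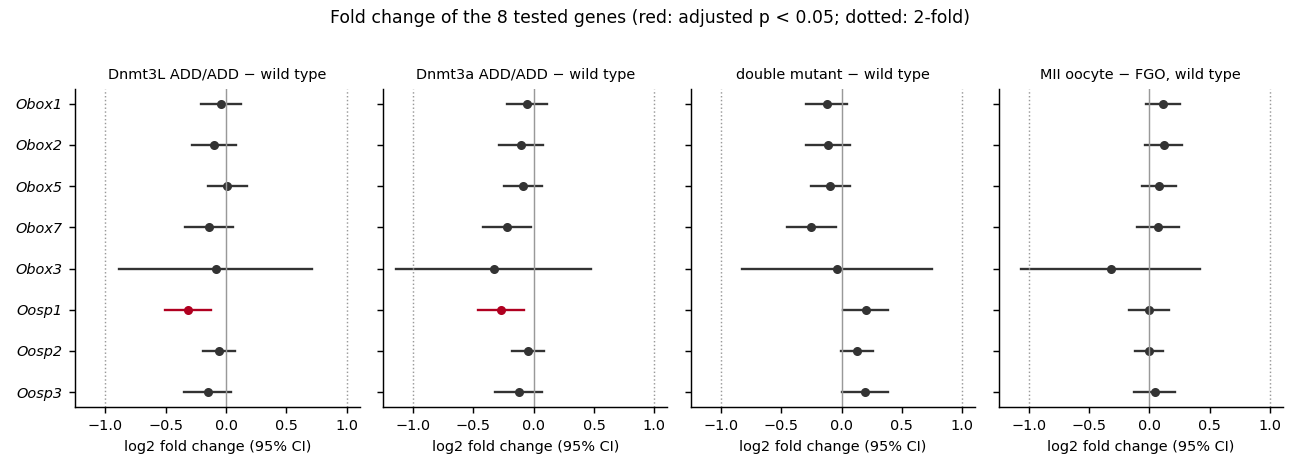
The 4 panels plot the log2 fold change with its 95% interval on a common horizontal axis for the 8 tested genes, for each mutant group against wild-type FGOs and for wild-type MII oocytes against FGOs; red marks an adjusted p under 0.05 and dotted lines mark 2-fold. Intervals of Obox1, Obox2, Obox5 and Obox7 stay between the dotted lines, that of Obox3 is the widest, and the red points are Oosp1 in both single mutants (-0.32 and -0.27).

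Oosp1 had lower means in both single mutants than in wild-type FGOs and its highest mean in the double mutant. Its 18 wild-type FGOs ranged from 359 to 705 CPM with a median of 481. The Dnmt3L ADD/ADD FGOs ranged from 306 to 456 CPM with a median of 400, the Dnmt3a ADD/ADD FGOs from 301 to 500 CPM with a median of 417, and the double mutant FGOs from 516 to 599 CPM with a median of 578. All 8 double mutant oocytes thus lay above all 16 single mutant oocytes, and all groups overlapped with wild type.

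By edgeR's quasi-likelihood test, Oosp1 fell by 0.32 on the log2 scale in Dnmt3L ADD/ADD FGOs (SE 0.09, adjusted p = 0.0353) and by 0.27 in Dnmt3a ADD/ADD FGOs (SE 0.09, adjusted p = 0.042). It was 0.20 ± 0.09 higher in the double mutant, which did not pass (adjusted p = 0.144). Neither fall reached 2-fold, so no Oosp gene was called by the rule of the study, while by adjusted p alone 1 of 3 was called lower in each single mutant, beside 3.06% of all genes lower in Dnmt3L ADD/ADD and 7.61% lower in Dnmt3a ADD/ADD. Both calls lay close to the threshold. The Dnmt3a ADD/ADD call was lost in 10 of 26 fits that left out 1 library, with adjusted p up to 0.0798, and the Dnmt3L ADD/ADD call in 5 of 26, up to 0.079. Over these fits the log2 fold change stayed between -0.33 and -0.24 in Dnmt3a ADD/ADD and between -0.35 and -0.28 in Dnmt3L ADD/ADD FGOs. The lost calls followed the removal of wild-type replicates 1 to 6 or Dnmt3a ADD/ADD replicates 4 to 7 in the first comparison, and of wild-type replicate 1 or Dnmt3L ADD/ADD replicates 2, 3, 6 and 7 in the second.

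The double mutant differed from both single mutants. Oosp1 was higher by 0.47 ± 0.11 than in Dnmt3a ADD/ADD FGOs (adjusted p = 0.00145) and by 0.52 ± 0.11 than in Dnmt3L ADD/ADD FGOs (adjusted p = 0.0012). By adjusted p alone, the first comparison called 2 of 3 Oosp genes beside 16% of all genes that were higher, and the second 2 of 3 beside 12.8%. The non-additive effect, which is the double mutant effect minus the sum of both single mutant effects on the log2 scale, was 0.79 ± 0.15 for Oosp1 (adjusted p = 7.06e-05). This contrast called 2 of 3 Oosp genes and 0 of 5 Obox genes beside 35.6% of all genes (19.3% with a positive value, as both Oosp genes), and with a change over 2-fold 0 of 8 beside 10.3%. It is made of the same libraries as the other comparisons and adds no new samples.

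Oosp3 followed Oosp1 with smaller differences. Wild-type FGOs held 109 to 218 CPM with a median of 143, Dnmt3L ADD/ADD FGOs 103 to 162 CPM with a median of 138, Dnmt3a ADD/ADD FGOs 91.1 to 156 CPM with a median of 144, and double mutant FGOs 153 to 201 CPM with a median of 167. The double mutant overlapped with each other group. Against wild type Oosp3 did not pass in any mutant, with log2 fold changes of -0.15 ± 0.10, -0.13 ± 0.10 and 0.19 ± 0.10 in the order above (adjusted p = 0.352, 0.393 and 0.166). It was higher in the double mutant than in Dnmt3a ADD/ADD FGOs by 0.32 ± 0.11 (adjusted p = 0.0274) and than in Dnmt3L ADD/ADD FGOs by 0.35 ± 0.11 (adjusted p = 0.0233). The first of these calls was lost without Dnmt3a ADD/ADD replicate 4 (adjusted p = 0.0558) and the second without Dnmt3L ADD/ADD replicate 7 (adjusted p = 0.0541). The non-additive effect was 0.47 ± 0.15 (adjusted p = 0.012).

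Oosp2 moved least. Its wild-type FGOs held 77.3 to 126 CPM with a median of 100.2, and the double mutant FGOs 96.1 to 125 CPM with a median of 106. Dnmt3a ADD/ADD FGOs held 87.4 to 106 CPM with a median of 95.8, and Dnmt3L ADD/ADD FGOs 74.0 to 111 CPM with a median of 94.6. The ranges overlap throughout. The largest of its differences was the non-additive effect, 0.24 ± 0.10 with an adjusted p of 0.0645, and no comparison passed. Across the 42 FGOs Pearson's r was 0.90 between Oosp1 and Oosp3, 0.73 between Oosp1 and Oosp2 and 0.29 between Oosp1 and Obox1, again as a description over libraries that share preparation.

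Levels of Oosp1 and Oosp3 differed with the class of mapped reads as well as between genotype groups, and the class is spread unevenly over these groups. Within the wild-type FGOs, which share 1 genotype, the 8 libraries with under 80% of reads mapped held 509 to 705 CPM of Oosp1, and the 10 with at least 80% held 359 to 489 CPM. The ranges do not overlap. In a comparison added after the data were seen, Oosp1 was 0.47 ± 0.07 higher in the first class on the log2 scale (edgeR adjusted p = 0.000139) and Oosp3 was 0.37 ± 0.09 higher (adjusted p = 0.00461). Oosp2 was 0.16 ± 0.07 higher (adjusted p = 0.117). The same comparison called 25.4% of 14664 genes by adjusted p and 0 of the 5 tested Obox genes, with differences of -0.02 for Obox1, -0.01 for Obox2, 0.00 for Obox5, 0.19 for Obox7 and -0.60 for the sparse Obox3 (adjusted p = 0.243).

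**Figure D4:**
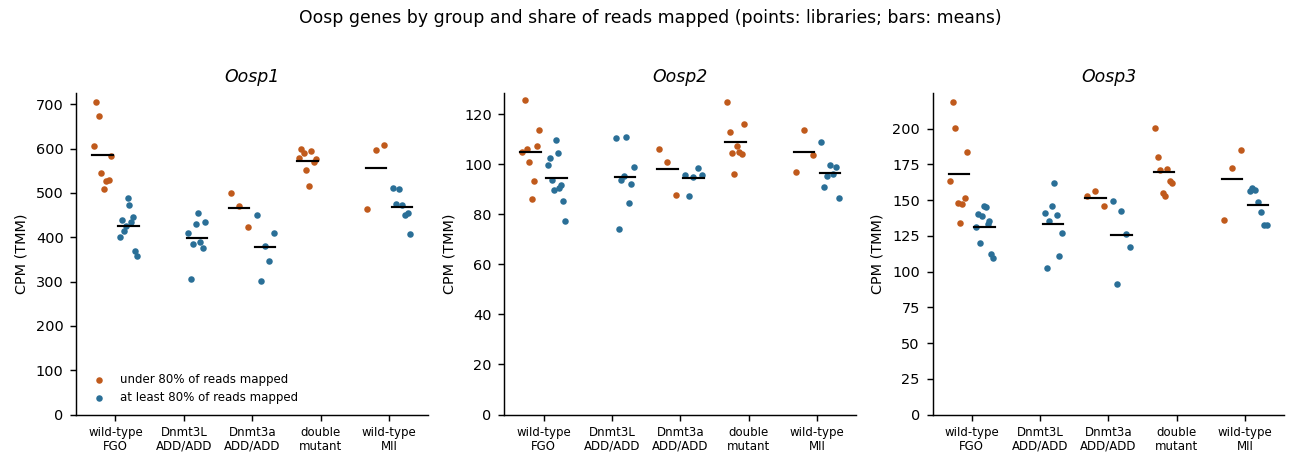
CPM of the 3 Oosp genes on linear axes from 0, by group, with each library coloured by its share of mapped reads (orange under 80%, blue at least 80%) and a black bar at the mean of each class. In wild-type FGOs the orange points of Oosp1 (509 to 705 CPM) lie above the blue ones (359 to 489 CPM), the Dnmt3L ADD/ADD group has blue points only and the double mutant group has orange points only.

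Within a class no difference of Oosp1 from wild type passed. Among libraries with under 80% of reads mapped, the double mutant FGOs averaged 572 ± 27.3 CPM (SD, n = 8) and the wild-type FGOs 585 ± 72.3 CPM (n = 8), a log2 difference of -0.04 (edgeR adjusted p = 0.918). Among libraries with at least 80%, the Dnmt3L ADD/ADD FGOs averaged 398 ± 46.0 CPM (n = 8) and the wild-type FGOs 425 ± 41.3 CPM (n = 10), a difference of -0.09 (adjusted p = 0.407). The Dnmt3a ADD/ADD FGOs lay lower than wild type in both classes. They averaged 465 ± 39.0 CPM (n = 3) under 80%, a log2 difference of -0.33 (adjusted p = 0.134), and 377 ± 57.2 CPM (n = 5) at 80% or more, a difference of -0.17 (adjusted p = 0.207).

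Of the Oosp1 differences called over all FGOs, the one between double mutant and Dnmt3a ADD/ADD FGOs also passed within a class, but not with the class as a covariate. Double mutant FGOs exceeded the 3 Dnmt3a ADD/ADD FGOs with under 80% of reads mapped by 0.30 (adjusted p = 0.00723), and the ranges of 516 to 599 and 423 to 500 CPM did not overlap. For Oosp3 the same difference was 0.17 (adjusted p = 0.157). With the class as a covariate over all 42 FGOs, the difference of Oosp1 between these groups was 0.22 (adjusted p = 0.0786), against 0.47 without it. In the same fit, Oosp1 in Dnmt3a ADD/ADD against wild type was -0.23 (adjusted p = 0.0121), in Dnmt3L ADD/ADD -0.12 (adjusted p = 0.399), and the non-additive effect was 0.34 for Oosp1 (adjusted p = 0.0516) and 0.11 for Oosp3 (adjusted p = 0.652). Between the Dnmt3L ADD/ADD and the double mutant FGOs no class holds both groups, and the effects of genotype and of class cannot be told apart.

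**Figure D5:**
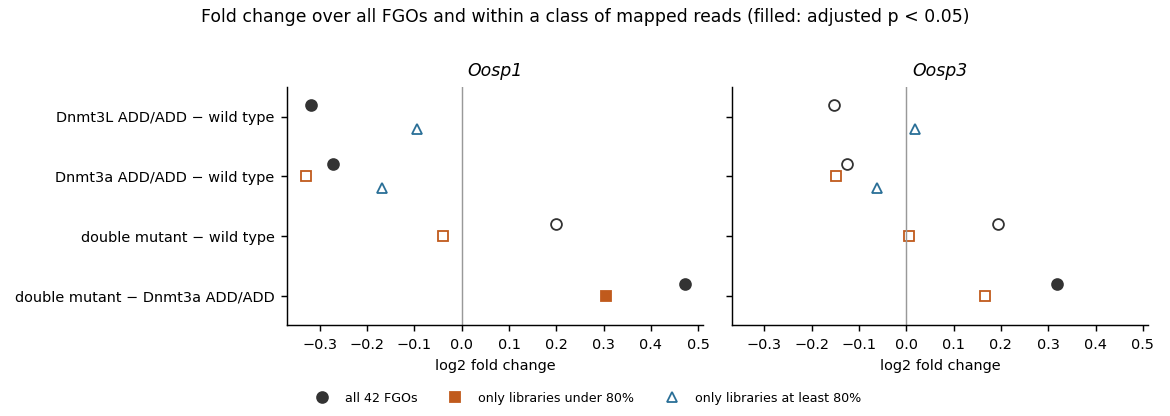
Log2 fold changes of Oosp1 and Oosp3 for 4 comparisons (rows), from all 42 FGOs (black), only libraries with under 80% of reads mapped (orange) and only libraries with at least 80% (blue); a filled symbol has an adjusted p under 0.05. For Oosp1 the symbols within a class lie near 0 for the Dnmt3L ADD/ADD and double mutant comparisons with wild type (-0.09 and -0.04), and the filled orange symbol shows it higher in double mutant than in Dnmt3a ADD/ADD FGOs (0.30).

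Other transcripts moved along with the groups too. Theca and stroma markers, which stem from cells around the follicle, summed to 11.3 to 92.9 CPM in wild-type FGOs, 8.47 to 36.1 CPM in Dnmt3L ADD/ADD, 4.97 to 84.7 CPM in Dnmt3a ADD/ADD and 3.12 to 5.02 CPM in double mutant FGOs, over 10 markers of which 1 was at 0 in all double mutant libraries. The 12 granulosa markers summed to 235 to 370, 188 to 264, 199 to 290 and 188 to 236 CPM in the same order, with none at 0 throughout a group. Most of this sum was Serpine2, at a mean of 187 CPM in wild-type and 170.0 CPM in double mutant FGOs. Other granulosa genes fell in the double mutant: Inha, an inhibin subunit, from a mean of 9.82 to 0.893 CPM (log2 -3.46, adjusted p = 1.07e-07), and Hsd3b1, a steroid-making enzyme, from 16.4 to 1.26 CPM (log2 -3.70, adjusted p = 2.17e-06). By adjusted p, 7 of the 12 were lower in the double mutant, 4 in Dnmt3a ADD/ADD and 2 in Dnmt3L ADD/ADD FGOs. Of all 15726 genes, 1060, 1197 and 481 were lower in this order. The 8 endothelium and blood markers summed to 60.1 to 99.4, 74.3 to 94.9, 80.2 to 131 and 47.2 to 73.5 CPM. Of the 8, 4, the haemoglobin genes, were at 0 in all mutant libraries. Most of this sum was Pecam1, at a mean of 72.6 CPM in wild-type and 60.3 CPM in double mutant FGOs. Within wild-type FGOs the sum averaged 68.8 CPM under 80% of reads mapped and 87.9 CPM at 80% or more. In double mutant FGOs, all under 80%, it averaged 64.2 CPM. The part of all these markers in the Oosp results was not tested.

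Other oocyte products were counted for comparison. Of 8 oocyte-secreted and zona genes, a list that holds the growth factors Gdf9 and Bmp15 and the egg coat genes Zp1, Zp2 and Zp3, the double mutant had 4 higher and 0 lower by adjusted p, Dnmt3a ADD/ADD FGOs had 0 higher and 5 lower, and Dnmt3L ADD/ADD FGOs had 0 higher and 4 lower. Of all genes, 5.51% were higher in the double mutant, 7.61% lower in Dnmt3a ADD/ADD and 3.06% lower in Dnmt3L ADD/ADD. Their median log2 fold changes were 0.24, -0.34 and -0.20 in this order, beside -0.01, -0.03 and -0.03 over all genes tested. The medians of the 3 Oosp genes were 0.19, -0.13 and -0.15, and those of the 5 Obox genes -0.11, -0.11 and -0.09. Zp2 fell by 0.61 in Dnmt3a ADD/ADD (adjusted p = 9.23e-05), and Bmp15 rose by 0.30 in the double mutant (adjusted p = 0.00436).

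Among transcription factors of the oocyte the directions were mixed. Of 9 tested oocyte transcription factors, 2 were higher and 1 lower in each single mutant by adjusted p, and 2 higher and 0 lower in the double mutant. In either direction, 12.2% of all genes were called in the double mutant, 15.7% with the Dnmt3a mutation and 6.13% with the Dnmt3L mutation. Pou5f1, itself a homeodomain factor of the germ line, was 0.40 higher in Dnmt3L ADD/ADD (adjusted p = 0.000507) and 0.45 higher in Dnmt3a ADD/ADD (adjusted p = 2.28e-05). Of 12 other paired-like and further homeobox genes, 3 could be tested, and 0 were called in any mutant against wild type. Gsc, the homeobox gene goosecoid, came closest, at 1.00 higher in the double mutant with an adjusted p of 0.0534. Of 11 tested regulators of embryonic genome activation, 0 were called in the single mutants and 2 were lower in the double mutant, Smarca4 (-0.21, adjusted p = 0.0251) and Dppa4 (-0.62, adjusted p = 0.0478).

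From FGO to MII oocyte no Obox or Oosp gene passed the test. Age and hormone treatment of the females may differ along with stage, and their effects cannot be told apart. In the 52-library fit, 0 of 5 Obox and 0 of 3 Oosp genes were called by either rule, beside 9.2% of 15784 genes by the rule of the study and 39.1% by adjusted p alone. At an unadjusted p under 0.05 the counts were 0 and 0 too, beside 7442 of the 15784 genes. The 10 MII libraries ranged from 653 to 813 CPM of Obox2 with a median of 746, from 521 to 686 CPM of Obox5 with a median of 586, and from 444 to 557 CPM of Obox1 with a median of 472. They lay inside the wider wild-type FGO ranges.

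The log2 fold changes from FGO to MII were 0.12 for Obox2 (95% interval -0.03 to 0.27), 0.11 for Obox1 (-0.03 to 0.26), 0.08 for Obox5 (-0.06 to 0.22) and 0.07 for Obox7 (-0.10 to 0.25). For Obox3 the value was -0.32 (-1.06 to 0.42). Oosp1 held 408 to 609 CPM in MII oocytes, and its log2 fold change was 0.00 (-0.17 to 0.17). For Oosp2 it was 0.00 (-0.12 to 0.12), and for Oosp3 0.04 (-0.13 to 0.21). In contrast, Zp3 fell by 1.96 (edgeR adjusted p = 4.79e-29) and Zp2 fell by 1.47 (adjusted p = 1.96e-18). Of the 8 oocyte-secreted and zona genes 5 were lower by adjusted p, beside 3560 of all 15784 genes.

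The maturation result of Oosp1 depended on which FGOs were used. Against the 8 wild-type FGOs with under 80% of reads mapped, Oosp1 was 0.23 lower in MII oocytes (adjusted p = 0.0181), and against the 10 with at least 80% it was 0.23 higher (adjusted p = 0.0134), as was Oosp3 (0.23, adjusted p = 0.0271). Within a class Oosp3 did not pass either (adjusted p = 0.929 and 0.0638). For Oosp1 within a class neither difference passed, and it was -0.06 (adjusted p = 0.74) under 80%, with 3 MII oocytes, and 0.13 (adjusted p = 0.0897) at 80% or more, with 7. Markers of follicle cells were lower in MII oocytes, and their part in the result was not tested. Theca and stroma markers summed to a mean of 25.8 CPM in wild-type FGOs and 4.02 CPM in MII oocytes (range 1.99 to 10.6), with 2 of 10 at 0 in all MII libraries. Of the 12 granulosa markers 9 were lower and 1 higher by adjusted p. Inha averaged 9.82 CPM in wild-type FGOs and 0.142 CPM in MII oocytes, and Inhbb averaged 11.7 CPM and was at 0 in all MII libraries. Of 11 tested regulators of embryonic genome activation, 6 were higher and 1 lower, and of 9 oocyte transcription factors 3 were higher and 4 lower. By the same threshold, 2610 of all 15784 genes were higher and 3560 lower. CPM are relative to the counted RNA of each oocyte, so a loss of total RNA during maturation would not show as a lower value.

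Some genes outside the families followed them closely over the FGOs. By Pearson's r with the mean standardised level of the 5 tested Obox genes, Cdc42se2 (0.85), Rab6a (0.84) and C87414 (0.82) were the most alike of all tested genes over 42 libraries. Over all 52 libraries the values were 0.85, 0.83 and 0.83. For the Oosp genes the most alike were Med30 (0.91), Tcl1b1 (0.90) and Ier5l (0.90) over 42 libraries, and 0.90, 0.85 and 0.85 over 52. In wild-type FGOs these genes averaged 696 CPM for Cdc42se2, 161 for Rab6a, 406 for C87414, 80.9 for Med30, 141 for Tcl1b1 and 146 for Ier5l. The libraries share depth, class of mapped reads and preparation, and the values are given as a description.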

How the data were processed

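RNA was measured in 52 single-oocyte SMART-Seq HT libraries. The authors aligned reads to mm10 with STAR and deposited raw read counts per gene. Their methods name featureCounts and the submitters' processing notes name HTSeq as the counter, and the annotation release, strand setting and handling of reads with several places are not given in the sources used here. Genes were filtered with filterByExpr (minimum count 10), scaled by TMM and tested with edgeR 4.0.16 (quasi-likelihood, R 4.3.3) with Benjamini-Hochberg adjustment over all genes tested. One fit held the 42 FGOs (15726 genes, 7 contrasts), another all 52 oocytes (15784 genes, MII against wild-type FGOs). A call needed an adjusted p under 0.05 and a fold over 2, and the non-additive contrast an adjusted p alone. The named genes are the 9 members in every comparison, other Obox or Oosp loci that pass the filter, the 3 genes most correlated with each family, and at most 2 genes with the lowest p per list. Members and lists were chosen with earlier results of these data known. Libraries were grouped by the labels, and by share of mapped reads (80%) from the study's sequencing summary. Alternatives were other normalizations, no filter, DESeq2 1.42.0, edgeR's exact test, robust estimation, class of mapped reads, a replicate block and leaving out each library. The script was tested on simulated data. Any 2 libraries of the same group differed by more than sampling noise (lowest chi-square per degree of freedom 5.02). Floors and intervals of counts cover counting error only. Sequences come from GENCODE transcripts and gene models of GRCm38. The embryo tables were not used here.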

Additional observations from a re-analysis of the deposited data

Results flagged for a closer look

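In 4 of 36 tests of a group of 8 or 10 oocytes, 1 library stood apart from the others by Dixon's test, which chance flags in about 1 in 20 groups. Dnmt3L ADD/ADD replicate 2 was flagged as lowest for 3 Obox genes, with 306 CPM of Obox1 (nearest library 421), 459 CPM of Obox2 (nearest 627) and 405 CPM of Obox5 (nearest 552). Levels of these 3 genes rose and fell together between oocytes, so their flags are not separate events. The same library was also lowest of its group, without a flag, for Obox7 (58.1 CPM), Oosp1 (306), Oosp2 (74.0) and Oosp3 (103). Double mutant replicate 4 was lowest for Obox2, with 434 CPM (nearest 600).

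By adjusted p, the effect of one mutation differed with the presence of the other for 2 of the 8 tested members, both Oosp genes, beside 35.6% of all genes. The non-additive effect on the log2 scale was 0.789 for Oosp1 and 0.47 for Oosp3 (edgeR adjusted p = 7.06e-05 and 0.012). With the class of mapped reads as a covariate these were 0.337 (adjusted p = 0.0516) and 0.11 (adjusted p = 0.652). All double mutant FGOs had under 80% of reads mapped and all Dnmt3L ADD/ADD FGOs at least 80%.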

How the results depend on the processing

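Without a minimum fold, the members called were 1 in Dnmt3L ADD/ADD and 1 in Dnmt3a ADD/ADD against wild type, 2 in the double mutant against Dnmt3a ADD/ADD and 2 against Dnmt3L ADD/ADD FGOs. The shares of all genes were 6.13%, 15.7%, 30.9% and 24.2% in this order. The non-additive contrast called 2 members (35.6% of all genes), 0 with a fold over 2 (10.3%), 0 with the class of mapped reads as a covariate and 1 with only wild-type FGOs of at least 80% mapped reads. It called 3 with only wild-type FGOs under 80% (Oosp1 1.037, Oosp2 0.326 and Oosp3 0.669, adjusted p = 9.09e-08, 0.0114 and 0.000454) and 3 with all 52 oocytes in the fit (Oosp2 0.244, adjusted p = 0.0417), and 2 to 3 when each library was left out in turn. Shares of all genes for the other settings of this contrast are not given here. By the rule of the study the other comparisons gave 0 when each library was left out. Oosp1 from FGO to MII turned from -0.003 to 0.234 (edgeR adjusted p = 0.0134) when set against the wild-type FGOs in which 80% of reads or more were mapped. With no filter, Oosp1 missed the threshold in Dnmt3L ADD/ADD (adjusted p = 0.0559) and Dnmt3a ADD/ADD (adjusted p = 0.0575). With library totals only, Oosp2 passed in the double mutant against Dnmt3a ADD/ADD (0.232, adjusted p = 0.0149) and Dnmt3L ADD/ADD (0.238, adjusted p = 0.0176) and in the non-additive contrast (0.321, adjusted p = 0.00917), where this scaling moved the median of all genes to 0.125. The cause was not tested. Replicate numbers did not pair the libraries (correlations of pairs -0.573 to 0.518). With the replicate block, which leaves wild-type replicates 1 to 8, the non-additive contrast called 3 members. Oosp3 then passed in Dnmt3L ADD/ADD (-0.327, edgeR adjusted p = 0.026) and Dnmt3a ADD/ADD (-0.316, adjusted p = 0.0219). Those replicates are the wild-type FGOs with under 80% of reads mapped. With only them as wild type the 2 values were -0.341 and -0.32, so the block is no separate check. Depth limits Obox3 and Obox6, where counts of 26 or fewer leave wide intervals or no test.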
